A study of Drosophila melanogaster with 9 samples.

Results

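The testis-specific TAFs (tTAFs) can, mia, nht, sa and rye and the components aly, comr, topi, tomb and achi of the testis-specific meiotic arrest complex (tMAC) are 10 genes that Drosophila spermatocytes need to switch on the genes of meiosis and sperm formation. They were taken by name from a table of 15809 gene loci. rye is listed there as Taf12L, its symbol in the reference annotation, and the other 9 carry the names used here. RNA came from whole wandering third-instar larvae in 3 genotypes on the w118 background, all raised on standard food, with 3 libraries each. The groups were Atg6-/- larvae (titled Atg6D/Atg6D), Atg6-/+ larvae (titled Atg6D/+) and larvae wild type for Atg6. Atg6 is the fly gene for the autophagy protein Beclin, which works with the lipid kinase Vps34. The mutation was present in every tissue, and neither the sex of the larvae nor the number per library is given in the sources used here. Nor is it stated whether the libraries came from separate cultures, so p-values measure the spread between libraries, which may be technical.

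Primary spermatocytes form in the larval testis and transcribe a large programme in preparation for meiosis and spermatid differentiation. The tTAFs are testis forms of subunits of TFIID, the general factor that recruits RNA polymerase II to promoters. tMAC is a testis form of the dREAM complex, which regulates cell cycle and developmental genes in other tissues. Loss of any of the classic members arrests spermatocytes before the meiotic divisions, hence the name meiotic arrest genes. In a whole larva these transcripts come from a small organ, and in such bulk RNA fewer spermatocytes and less RNA per spermatocyte cannot be told apart.

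Values are FPKM, a fragment count scaled to transcript length and to the library's mapped fragments, so levels can be set side by side between genes of different length. Their sum per library was 754677 to 1.09906e+06, and the absolute depth is unknown. Atg6 itself was at 0.027, 0 and 0.0563 FPKM in homozygotes 1, 2 and 3, at 7.58, 7.98 and 8.89 FPKM in the heterozygotes and at 16.1, 14.3 and 17.0 FPKM in the wild types, in the order of the labelled copy number. Some libraries stood apart within their genotype. Wild type 1 was high in male germline genes: its level over the mean of wild types 2 and 3 had a median of 2.73 over 17 spermatid genes and 1.58 over 7 spermatocyte genes. In homozygote 1 the 6 glue genes of the larval salivary gland summed to 4004 FPKM, the lowest of all libraries, and the highest homozygote had 27097 FPKM. Results are therefore also given without these libraries.

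All 10 members were lower in each homozygote library than in each wild type library, a pattern shown by 20.5% of all tested loci. After a test over 10887 loci, 5 of the 9 members that could be tested were lower in homozygotes: rye, nht and sa among the tTAFs, and aly and achi in tMAC. Only rye passed without wild type 1, without wild type 3 and without homozygote 3, settings in which 274, 154 and 191 of all loci were called lower, against 1053 with every library. The other 4 (can, mia, topi, tomb) did not pass, and no member was higher. The background share of loci called lower was 9.67%, and that of loci called higher 12.3%. The median log2 fold change of the 9 tested members was -0.69, against 0.01 over all tested loci. No member passed in heterozygotes against wild types. The test was limma on log2(FPKM + 1) with Benjamini-Hochberg adjustment and a threshold of 0.05. Fold changes are on this scale, which understates the change of genes near 1 FPKM, so the ratio of mean FPKM is given beside them. Loci entered the test with at least 1 FPKM in at least 3 libraries. can entered through its heterozygote and wild type libraries alone, since it stayed under 1 FPKM in each homozygote. comr did not enter.

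**Figure D1:**
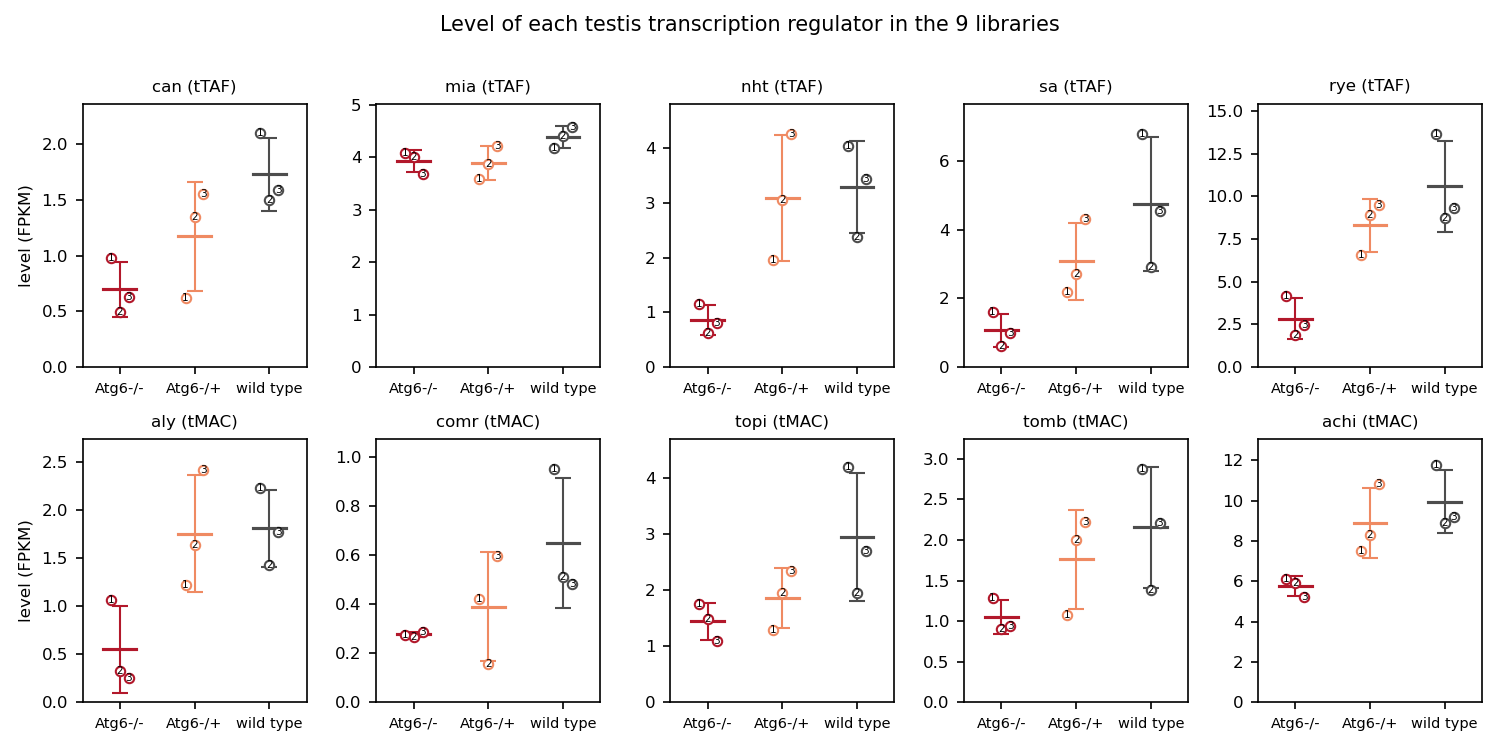
FPKM of each of the 10 genes (vertical axes, each with its own scale from 0) in Atg6-/-, Atg6-/+ and wild type larvae; numbered circles are libraries 1 to 3, bars the mean and whiskers 1 SD. Every homozygote circle lies below every wild type circle in all panels, by the smallest relative margin in mia, and homozygote 1 is the highest homozygote for 9 of the 10 genes.

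Among the tTAFs, rye, the testis relative of the TFIID subunit Taf12, had the highest level in wild types and the largest fitted change of the members. It lies on chromosome arm 2L at 4700835-4701485 (minus strand; all coordinates are BDGP6, the dm6 assembly, with start and end counted from 1), within dcma on the plus strand and sharing 0 exonic bases with it. The deposited locus of rye is wider, at 4694721-4722465, and whether strand was used in counting is not given. rye was at 4.16, 1.91 and 2.46 FPKM in homozygotes 1 to 3, at 6.56, 8.90 and 9.46 FPKM in heterozygotes and at 13.7, 8.73 and 9.32 FPKM in wild types. All homozygotes lay below all 6 other libraries, while heterozygotes and wild types overlapped. The mean was 2.84 ± 1.18 FPKM in homozygotes and 10.6 ± 2.69 FPKM in wild types (SD, n = 3 each), a ratio of 0.269. The log2 fold change was -1.61 (SE 0.25, limma adjusted p = 0.0058). Against heterozygotes, which averaged 8.31 ± 1.54 FPKM, it was -1.30 (SE 0.25, limma adjusted p = 0.0206). The call against wild types held without any one library (adjusted p between 0.0041 and 0.0267). The call against heterozygotes was lost without heterozygote 2, heterozygote 3 or homozygote 3, with adjusted p up to 0.0943.

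nht, the testis relative of Taf4, is a gene of 1 exon on 2L at 15317954-15318901 (minus strand). Its level was 1.15, 0.623 and 0.812 FPKM in homozygotes, 1.96, 3.06 and 4.26 FPKM in heterozygotes and 4.04, 2.38 and 3.43 FPKM in wild types. Homozygotes were below every other library, and the heterozygotes spanned the wild type range. The ratio of the homozygote mean to the wild type mean was 0.262, and the log2 fold change was -1.19 (SE 0.24, limma adjusted p = 0.0163). nht was also lower than in heterozygotes, by a log2 fold change of -1.11 (SE 0.24, limma adjusted p = 0.0348). Against wild types nht did not pass once wild type 1, wild type 3 or homozygote 3 was left out, with adjusted p reaching 0.0642. That against heterozygotes was lost without wild type 3, heterozygote 2 or 3, or homozygote 2 or 3 (adjusted p up to 0.134).

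sa, the testis relative of Taf8, lies on 3L at 21405425-21406738 (minus strand), inside rgn on the opposite strand and sharing 0 exonic bases with it. As with rye, the deposited locus is wider, at 21382501-21433134. sa was at 1.59, 0.616 and 0.993 FPKM in homozygotes, at 2.18, 2.72 and 4.32 FPKM in heterozygotes and at 6.78, 2.91 and 4.54 FPKM in wild types. The highest homozygote stayed below the lowest of the other libraries, and wild type 1 was the highest of all. Its ratio of means, 0.225, was the lowest of the members. The log2 fold change against wild types was -1.45 (SE 0.31, limma adjusted p = 0.0183). Against heterozygotes it was -0.97 (SE 0.31), which did not pass (limma adjusted p = 0.106). Leaving out wild type 1, wild type 3 or homozygote 3 ended the call of sa against wild types, with adjusted p reaching 0.0653.

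can, the testis relative of Taf5, lies on 3L at 10263909-10267111 (minus strand). It was at 0.975, 0.496 and 0.631 FPKM in homozygotes, at 0.618, 1.35 and 1.55 FPKM in heterozygotes and at 2.104, 1.496 and 1.587 FPKM in wild types. Heterozygote 1 sat among the homozygotes and the other heterozygotes near the wild types. The ratio of the homozygote mean to the wild type mean was 0.405, and the log2 fold change of -0.69 (95% interval -1.18 to -0.19) missed the threshold (limma adjusted p = 0.0543). can passed without heterozygote 1 (adjusted p = 0.0424) and with no mean-variance trend in the fit (adjusted p = 0.0449). With any other library left out it did not pass, and limma adjusted p reached 0.143. In the remaining alternatives it reached 0.402.

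mia, the testis relative of Taf6, lies on 3R at 5548115-5551168 (minus strand), and its levels differed least among the members. It was at 4.07, 4.01 and 3.68 FPKM in homozygotes, at 3.58, 3.86 and 4.22 FPKM in heterozygotes and at 4.17, 4.41 and 4.58 FPKM in wild types. The gap between the highest homozygote and the lowest wild type was small, and homozygotes and heterozygotes overlapped. The ratio of the homozygote mean to the wild type mean was 0.894, and the log2 fold change was -0.13 (95% interval -0.33 to 0.07, limma adjusted p = 0.294). Against heterozygotes it was 0.01 (95% interval -0.19 to 0.21). Neither interval holds a change as large as the fitted changes of nht, sa or rye in the same comparison, though a difference between genes was not tested. Under quantile normalization the sign of mia against wild types turned, to 0.18, and it did not pass.

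The makeup of the tTAF set followed from these levels. mia made up 34.1%, 52.4% and 42.9% of the summed tTAF FPKM in homozygotes 1 to 3, 24.0%, 19.4% and 17.7% in heterozygotes and 13.6%, 22.1% and 19.5% in wild types. rye made up 34.8%, 24.9% and 28.7% in homozygotes, 44.0%, 44.8% and 39.7% in heterozygotes and 44.4%, 43.8% and 39.7% in wild types. mia was thus the most abundant tTAF transcript in homozygotes 2 and 3, and rye in homozygote 1 and in every heterozygote and wild type.

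In tMAC, aly and achi passed against wild types. aly, a relative of the dREAM subunit mip130 and the gene whose name, always early, describes the arrested spermatocytes, lies on 3L at 3024129-3026521 (minus strand). It was at 1.07, 0.328 and 0.257 FPKM in homozygotes, at 1.22, 1.63 and 2.42 FPKM in heterozygotes and at 2.23, 1.43 and 1.77 FPKM in wild types. Homozygote 1 was the highest of its genotype and still below every other library, and heterozygotes and wild types covered the same range. The ratio of the homozygote mean to the wild type mean was 0.304, and the log2 fold change was -0.88 (SE 0.25, limma adjusted p = 0.0433). Against heterozygotes it was -0.84 (SE 0.25, limma adjusted p = 0.0894). The call against wild types rested on several libraries: it was lost without wild type 1 or 3, any heterozygote, or homozygote 2 or 3, with adjusted p up to 0.131. It was also lost with a pseudocount of 5, quantile normalization, only 2 genotypes fitted or the replicate block (adjusted p up to 0.136). Without homozygote 1, aly passed against heterozygotes as well (adjusted p = 0.0401).

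achi and its near-identical neighbour vis encode TGIF-type homeodomain proteins, and the deposited table holds them as 1 locus, so their levels cannot be separated. achi lies on 2R at 12511534-12515062 and vis at 12507896-12510615, both on the minus strand. The joint locus was at 6.14, 5.94 and 5.23 FPKM in homozygotes, at 7.53, 8.31 and 10.8 FPKM in heterozygotes and at 11.8, 8.90 and 9.19 FPKM in wild types. The homozygotes lay close together and below all other libraries. The ratio of the homozygote mean to the wild type mean was 0.580, and the log2 fold change was -0.69 (SE 0.15, limma adjusted p = 0.0204). Against heterozygotes it was -0.54 (SE 0.15, limma adjusted p = 0.0744). The call against wild types ended when wild type 1, wild type 3 or homozygote 3 was left out, with adjusted p reaching 0.0761.

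topi, a zinc finger protein of tMAC, lies on 3R at 9775121-9777943 (plus strand). It was at 1.76, 1.49 and 1.10 FPKM in homozygotes, at 1.29, 1.95 and 2.34 FPKM in heterozygotes and at 4.19, 1.95 and 2.70 FPKM in wild types. Wild type 1 stood above the other wild types, and heterozygote 1 fell inside the homozygote range. The ratio of the homozygote mean to the wild type mean was 0.491, and the log2 fold change was -0.66 (95% interval -1.21 to -0.11, limma adjusted p = 0.0778).

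tomb, a CXC-domain relative of the dREAM subunit mip120, lies on 2L at 5535861-5536758 (minus strand). It shares 98 exonic bases with Cap-D3 on the other strand, so its level is less certain if strand was not used in counting. tomb was at 1.29, 0.908 and 0.947 FPKM in homozygotes, at 1.07, 2.00 and 2.22 FPKM in heterozygotes and at 2.87, 1.39 and 2.204 FPKM in wild types. As with topi, heterozygote 1 lay within the homozygote range. The log2 fold change against wild types was -0.60 (95% interval -1.14 to -0.06, limma adjusted p = 0.0936), with a ratio of means of 0.486. Both topi and tomb passed only without wild type 2 (limma adjusted p = 0.0369 and 0.0420), where 1700 of all loci were called lower. With any other library left out neither passed, and adjusted p reached 0.208 for topi and 0.245 for tomb. In the remaining alternatives it reached 0.480 for topi and 0.651 for tomb.

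comr, a nuclear protein of tMAC with a winged-helix fold, is a gene of 1 exon on 2R at 21864870-21866859 (minus strand) and was the weakest member. It was at 0.275, 0.267 and 0.287 FPKM in homozygotes, at 0.420, 0.155 and 0.594 FPKM in heterozygotes and at 0.951, 0.511 and 0.481 FPKM in wild types. The homozygotes were nearly equal and below every wild type, and the lowest value of all was heterozygote 2. In a fit with no filter on low values, comr differed between homozygotes and wild types by a log2 fold change of -0.36 (SE 0.14), which did not pass (limma adjusted p = 0.114).

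**Figure D2:**
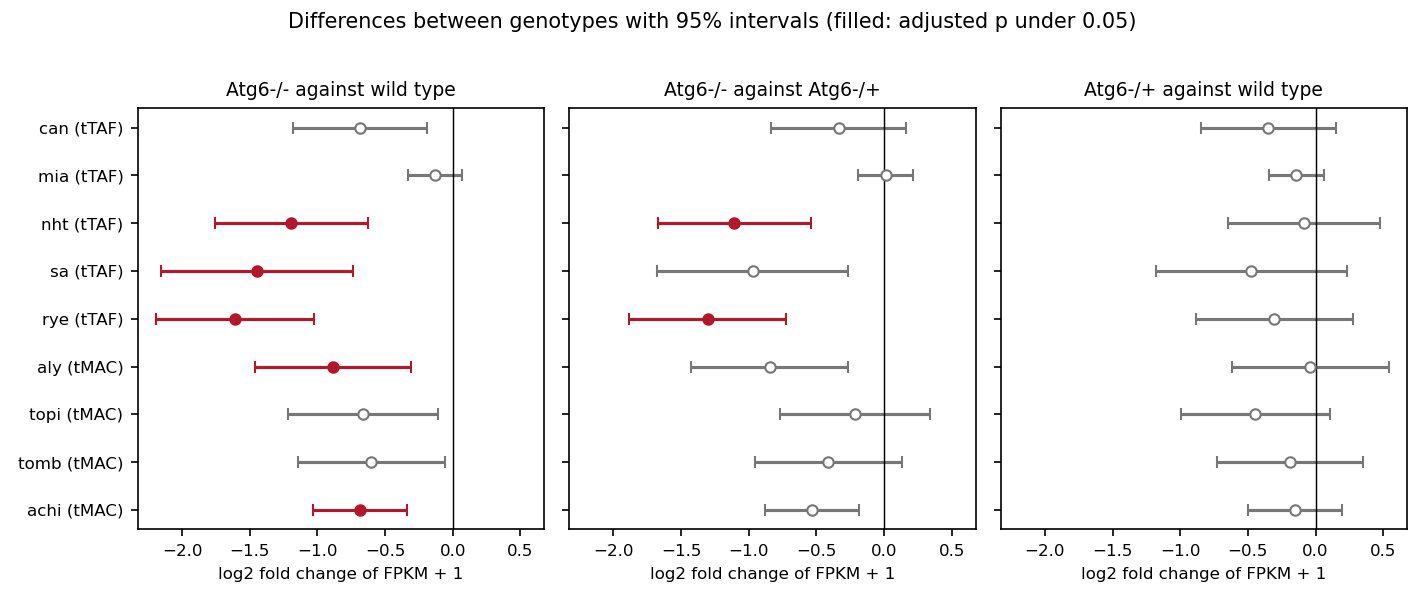
Log2 fold change of FPKM + 1 (horizontal axis) of the 9 tested members in the 3 comparisons; points are limma estimates, lines their 95% intervals, and filled points have an adjusted p under 0.05. Filled points are rye, nht, sa, aly and achi against wild types, rye and nht against heterozygotes, and none between heterozygotes and wild types.

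The heterozygotes carry a single mutant copy and address whether partial loss of Atg6 moves the same genes. 0 of 9 tested members passed against wild types by limma, 0 had an unadjusted p under 0.05 (2.32% of all tested loci had one and were lower), and no member separated the groups, against 6.18% of tested loci that did so as lower. The background shares were 0.0643% called lower, or 7 loci, and 0.147% called higher, so few loci passed in this comparison at all. Fitted log2 fold changes were between -0.47 for sa (95% interval -1.18 to 0.23) and -0.04 for aly (95% interval -0.62 to 0.54). These intervals do not show that the genotypes were alike. The heterozygote libraries varied together: heterozygote 3 was the highest heterozygote for 10 of the 10 members and heterozygote 1 the lowest for 9. For homozygotes against heterozygotes, 2 of 9 tested members were lower and 0 higher, against background shares of 1.42% called lower and 6.27% called higher, with a median log2 fold change of -0.54 against -0.02 over all tested loci. nht, sa, rye, aly and achi separated these genotypes by library, 5 of the 10 members, against 15.6% of all tested loci. This comparison and that against wild types share the homozygote libraries.

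Within wild types the order of mean levels was rye, achi at 9.95 FPKM, sa at 4.74 FPKM, mia at 4.39 FPKM, nht at 3.28 FPKM, topi at 2.95 FPKM, tomb at 2.15 FPKM, aly at 1.81 FPKM, can at 1.73 FPKM and comr at 0.648 FPKM. Neighbours in this order overlapped between libraries except achi and sa, mia and nht, and can and comr. In homozygotes achi led at 5.77 FPKM, followed by mia at 3.92 FPKM and rye at 2.84 FPKM, and the remaining 7 were at 1.45 FPKM or less. There the libraries of achi and mia did not overlap, and those of mia and rye did. Wild type 1 was the highest library for 7 of the 10 members.

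The tTAFs and several tMAC components have a general form that is used outside the testis, and these forms gave no lower calls in homozygotes. Of the 5 general counterparts (Taf4, Taf5, Taf6, Taf8, Taf12), 0 were lower and 1 was higher against wild types, with a median log2 fold change of -0.03. The higher one was Taf6, the counterpart of mia, at 27.6, 45.3 and 37.3 FPKM in homozygotes, 23.4, 25.2 and 27.0 FPKM in heterozygotes and 21.6, 23.0 and 26.9 FPKM in wild types (log2 fold change 0.58, limma adjusted p = 0.0488). Homozygote 1 was close to the other genotypes for Taf6, and the call was lost without any one library other than homozygote 1. None of 9 other TFIID subunits passed by limma in homozygotes against wild types, and their most abundant member was Taf10, at 36.3, 39.5 and 41.0 FPKM in homozygotes and 38.0, 46.0 and 38.8 FPKM in wild types. The 11 dREAM genes, not all of them counterparts of tMAC genes, likewise gave 0 calls. The 1 with an unadjusted p under 0.05 was Myb, which was higher (log2 fold change 0.32, limma adjusted p = 0.0916). The most abundant dREAM gene, Caf1, which codes for a histone-binding subunit, was at 46.2, 51.2 and 49.5 FPKM in homozygotes and 49.95, 43.6 and 47.6 FPKM in wild types.

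Set against its general form within each library, sa was at 13.8% ± 6.87 of Taf8 in homozygotes and 37.9% ± 18.2 in heterozygotes (SD, n = 3 each), and at 83.6%, 34.4% and 61.8% in wild types 1 to 3. rye was at 9.72% ± 4.45 of Taf12 in homozygotes, 27.5% ± 3.98 in heterozygotes and 47.3%, 29.3% and 30.1% in wild types 1 to 3. nht was at 3.58% ± 1.43 of Taf4 in homozygotes, 11.7% ± 4.55 in heterozygotes and 14.6%, 9.04% and 12.8% in wild types 1 to 3. For mia the share of Taf6 was 11.2% ± 3.17 in homozygotes, 15.4% ± 0.18 in heterozygotes and 18.5% ± 1.29 in wild types, where both a lower mia and a higher Taf6 enter. aly was at 5.82% ± 5.34 of mip130 in homozygotes and 16.9% ± 5.93 in heterozygotes, with 20.4%, 12.7% and 16.6% in wild types 1 to 3. These ratios carry no test of their own.

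**Figure D3:**
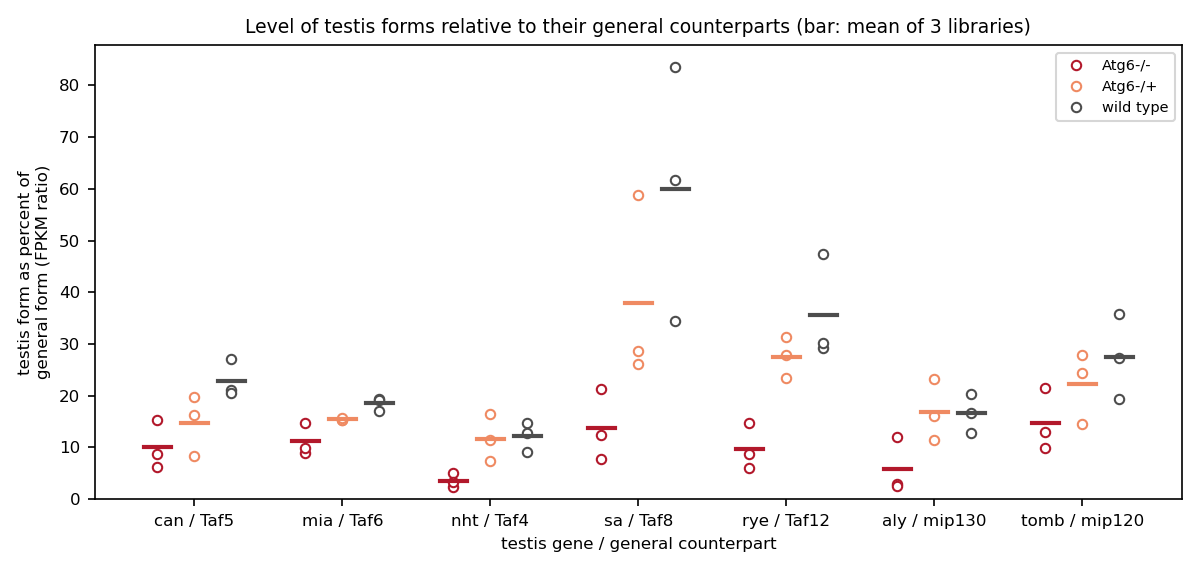
FPKM of 7 testis genes as a percent of the FPKM of their general counterpart in the same library (vertical axis from 0); circles are libraries of Atg6-/-, Atg6-/+ and wild type larvae from left to right, and bars are means of 3. For sa, rye, nht, can, mia and aly all homozygote circles lie below all wild type circles, while for tomb homozygote 1 lies above the lowest wild type.

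Other meiotic arrest genes shared the members' pattern in part. Of 7 tested, 4 were lower in homozygotes than in wild types and 0 higher, against 9.67% and 12.3% of all tested loci. 1 of the 4 is vis, which is the achi locus. The list's median log2 fold change of -0.69 is the value of that same locus. simj, at -0.14, and thoc5, at -0.05, differed little and did not pass (limma adjusted p = 0.281 and 0.594). fest was at 14.2, 5.32 and 7.24 FPKM in homozygotes and 40.7, 22.5 and 26.8 FPKM in wild types (log2 fold change -1.70, limma adjusted p = 0.0209). kmg, a zinc finger gene of spermatocytes whose locus also holds Pk34A, was at 2.27, 1.05 and 1.29 FPKM in homozygotes and 6.17, 3.97 and 5.01 FPKM in wild types (log2 fold change -1.27, limma adjusted p = 0.0209). dany, on a locus with CG34370, was at 1.14, 1.16 and 1.16 FPKM in homozygotes and 1.92, 2.23 and 2.15 FPKM in wild types (log2 fold change -0.52, limma adjusted p = 0.0471). wuc, the testis relative of the dREAM subunit lin-52, had a log2 fold change of -0.93 and did not pass (limma adjusted p = 0.0975). Without wild type 1, wild type 3 or homozygote 3, 0 of the 7 passed.

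Some of the genes that spermatocytes switch on through tTAFs and tMAC were lower in homozygotes too. Of 17 tested spermatid genes, 6 were lower in homozygotes than in wild types and 0 higher, against 9.67% and 12.3% of all tested loci. The median log2 fold change of the 17 was -1.65. The 6 were the sperm tail genes Mst84Da, Mst84Dd, Mst98Ca and Mst98Cb, with dj and ocn, which code for proteins of the sperm. Mst84Da was at 13.1, 7.10 and 6.73 FPKM in homozygotes and 91.6, 17.1 and 35.3 FPKM in wild types (log2 fold change -2.04, limma adjusted p = 0.0395). ocn, the most abundant of the 6 in wild types, was at 25.9, 11.5 and 13.2 FPKM in homozygotes and 111, 29.6 and 53.8 FPKM in wild types (log2 fold change -1.77, limma adjusted p = 0.0459). The other 4 had log2 fold changes of -1.71 for Mst84Dd, -1.88 for Mst98Ca, -1.65 for Mst98Cb and -1.79 for dj. In each of these the spread of the wild types was wide and led by wild type 1. Of the 17 genes, 16 had a negative log2 fold change, and Mst84Db was the exception. Mst84Db was at 13.1, 8.43 and 5.37 FPKM in homozygotes and 14.8, 3.32 and 5.22 FPKM in wild types (log2 fold change 0.33, limma adjusted p = 0.635). janB shares its locus with janA, gdl with Eip71CD and Z600, and Mst36Fa with Mst36Fb.

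Of 6 tested spermatocyte genes, 3 were lower in homozygotes and 0 higher (median log2 fold change -0.96), against 9.67% and 12.3% of all tested loci. twe, the Cdc25 phosphatase of meiosis, was at 4.11, 2.85 and 2.56 FPKM in homozygotes and 12.6, 5.38 and 6.02 FPKM in wild types (log2 fold change -1.04, limma adjusted p = 0.0429). eIF4E-3, a testis translation initiation factor, was at 10.1, 5.90 and 5.04 FPKM in homozygotes and 27.7, 15.9 and 19.2 FPKM in wild types (log2 fold change -1.47, limma adjusted p = 0.021). betaTub85D, the testis tubulin, on a locus with Task7, had a log2 fold change of -1.78 (limma adjusted p = 0.0458). bol, a translational regulator of twe, narrowly missed with -0.73 (limma adjusted p = 0.0554). Without wild type 1, 0 of 17 spermatid and 0 of 6 spermatocyte genes passed, as was also the case without wild type 3 or without homozygote 3. Without wild type 2, 13 of 17 and 3 of 6 were lower, and without homozygote 1, 9 of 17 and 4 of 6. Over all loci, 1700 were called lower without wild type 2 and 972 without homozygote 1, against 1053 with every library. With no filter on low values, 751 of 14531 loci were called lower. 3 of the 17 spermatid genes then passed, with Mst84Da, dj and ocn lost. Among the spermatocyte genes, twe and betaTub85D no longer passed (limma adjusted p between 0.0506 and 0.0581 for these 5). With wild type 1 and homozygote 1 both left out, 5 of 17 and 4 of 6 were lower, and 4 of 9 members. This alternative was added after the data were seen, and it gave 747 lower calls over all loci, against 1053 with every library.

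**Figure D4:**
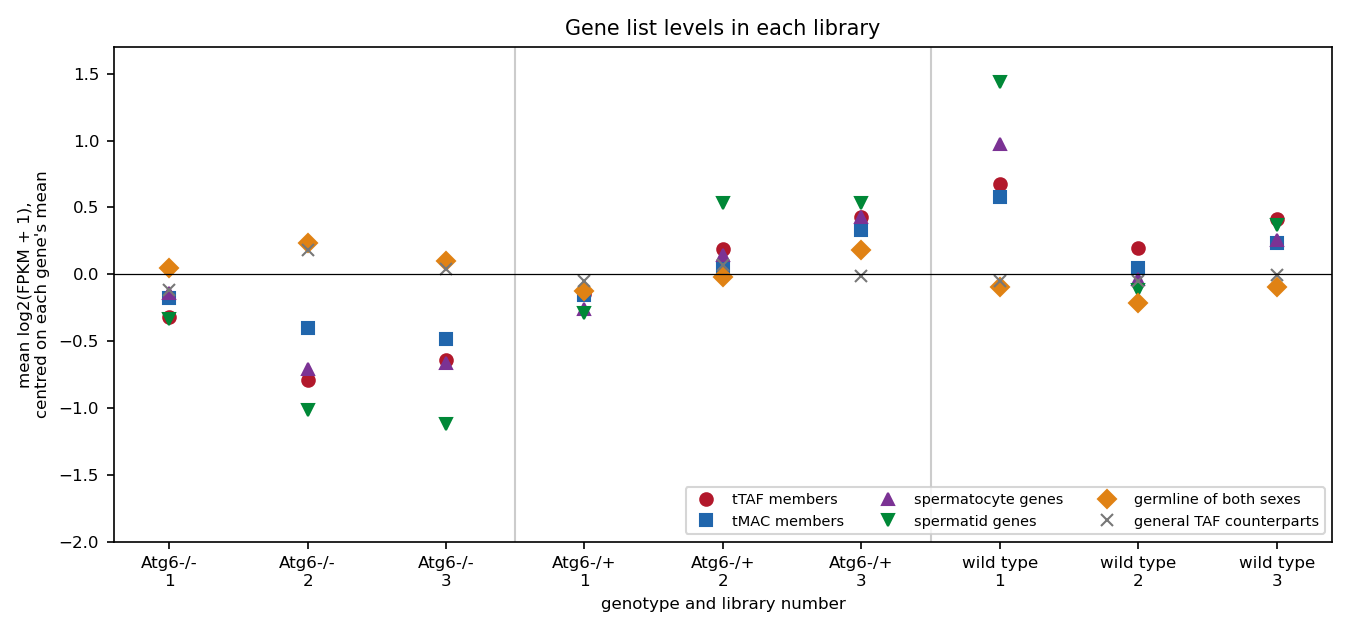
Mean over each gene list of log2(FPKM + 1), centred on each gene's mean over the 9 libraries (vertical axis), in each library of Atg6-/-, Atg6-/+ and wild type larvae. The tTAF and tMAC members are below 0 in each homozygote and above 0 in each wild type; spermatocyte and spermatid genes are also below 0 in each homozygote and peak in wild type 1, while the germline genes of both sexes are above 0 in each homozygote.

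Across libraries the centred mean of the members was -0.25, -0.59 and -0.56 in homozygotes 1 to 3, -0.15, 0.11 and 0.38 in heterozygotes and 0.63, 0.12 and 0.32 in wild types. The spermatid genes had centred means of -0.34, -1.01 and -1.12 in homozygotes, -0.29, 0.53 and 0.54 in heterozygotes and 1.44, -0.11 and 0.37 in wild types. Both sets were lowest in homozygotes 2 and 3 and highest in wild type 1. Germline genes of both sexes had centred means of 0.05, 0.23 and 0.10 in homozygotes and -0.10, -0.21 and -0.10 in wild types, and 0 of 7 tested passed by limma in homozygotes against wild types, or 4 of 7 as higher under quantile normalization, where 1067 of all loci were called higher, against 1343 without it. In a fit with no filter on low values, nos and zpg of the same list passed as higher (limma adjusted p = 0.0443 and 0.0195) at low levels: nos was at 0.567, 1.38 and 0.909 FPKM in homozygotes and 0.254, 0.231 and 0.299 FPKM in wild types, and zpg at 0.473, 0.819 and 0.638 FPKM in homozygotes and 0.209, 0.152 and 0.281 FPKM in wild types. The list's most abundant member, tud, was at 72.7, 87.9 and 85.8 FPKM in homozygotes and 60.9, 78.1 and 75.3 FPKM in wild types. vas, the germline RNA helicase, was at 1.85, 2.81 and 2.65 FPKM in homozygotes and 1.69, 1.63 and 1.53 FPKM in wild types, which did not pass (limma adjusted p = 0.134).

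Of 2 tested spermatogonial genes, tut was lower. The other, bgcn, lies on a locus with wibg, so its own level cannot be separated. That locus was at 18.9, 15.8 and 16.4 FPKM in homozygotes and 16.7, 17.9 and 18.1 FPKM in wild types (limma adjusted p = 0.692). bam was too low to test, and its homozygotes and wild types overlapped. tut acts with bam and bgcn to end the divisions that precede the spermatocyte stage. It was at 1.59, 1.20 and 1.40 FPKM in homozygotes, at 7.30, 6.58 and 7.12 FPKM in heterozygotes and at 7.44, 8.74 and 8.20 FPKM in wild types. The homozygotes stood far below both other genotypes, with little spread. Its log2 fold change was -1.93 against wild types (SE 0.10, limma adjusted p = 5.62e-05) and -1.74 against heterozygotes (limma adjusted p = 0.000111), and both calls held in every alternative run, with adjusted p of at most 0.0021 against wild types and 0.0035 against heterozygotes. Within the wild types library 1 was the lowest for tut, whereas it was the highest wild type for 9 of the 10 members.

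Markers of the somatic cells of the gonad and of male and stage composition moved partly with the members, and their part in the results was not tested. eya, needed in the cyst cells around spermatocytes, was at 3.38, 3.72 and 2.89 FPKM in homozygotes and 6.41, 4.05 and 5.499 FPKM in wild types (log2 fold change -0.53, limma adjusted p = 0.0489), a call lost without any one library other than wild type 2. In RNA of whole larvae the level of eya cannot be assigned to cyst cells. zfh1, found in cyst stem cells and also in other tissues, was at 23.6, 24.2 and 18.0 FPKM in homozygotes and 8.98, 6.20 and 8.37 FPKM in wild types (log2 fold change 1.37, limma adjusted p = 0.00138). The other 2 genes of that list, tj and Six4, were too low to test. Of its 4 genes, eya, tj and Six4 were lower in each homozygote than in each wild type, as were 20.5% of all tested loci, and zfh1 was higher. zfh1 carried most of the list's summed level, which was 21.4 to 28.4 FPKM in homozygotes and 10.9 to 16.3 FPKM in wild types. None of the 3 male dosage compensation genes passed. roX1, a noncoding RNA of the male X chromosome, was at 135, 150 and 143 FPKM in homozygotes, 90.4, 137 and 123 FPKM in heterozygotes and 123, 95.4 and 153 FPKM in wild types. roX2 was at 19.6, 31.9 and 30.9 FPKM in homozygotes and 35.6, 25.2 and 45.3 FPKM in wild types. Neither roX gene separated the genotypes.

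Of 9 matched Y-linked fertility genes, 2 could be tested and neither passed by limma in homozygotes against wild types. The summed level of the 9 was 1.98 to 4.35 FPKM in homozygotes and 3.92 to 8.50 FPKM in wild types, ranges that overlap. FDY was the most abundant, at 3.37, 1.58 and 2.13 FPKM in homozygotes and 3.82, 2.37 and 2.83 FPKM in wild types. ARY, the other tested gene, was at 0.571, 0.200 and 0.213 FPKM in homozygotes and 1.89, 0.988 and 0.814 FPKM in wild types. Its log2 fold change was -0.73 (limma adjusted p = 0.0622). At low levels, 3 of the 9 (ARY, kl-2 and Pp1-Y2) were lower in each homozygote than in each wild type, and 0 were higher. Of all tested loci, 20.5% were lower in this way. The glue genes, which mark late larval stages, summed to 4004 to 27097 FPKM in homozygotes and 51392 to 74341 FPKM in wild types. 1 of the 6 passed, Sgs8, at 288, 1935 and 2496 FPKM in homozygotes and 5650, 6038 and 7810 FPKM in wild types (log2 fold change -2.52, limma adjusted p = 0.0441). Without homozygote 1, 5 of the 6 were lower, and without any one wild type or heterozygote library none was. Homozygote 1, the lowest in glue genes, was the highest homozygote for 9 of the 10 members. Genotype and developmental stage at collection cannot be told apart in this design.

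Over the 9 libraries, the loci whose centred log2(FPKM + 1) profile was most like the mean of the tested members were CG8509, CG3515, CG1924, mtsh and CG42730. Likeness was the root mean square difference, and it was 0.070 for CG8509, 0.086 for CG3515, 0.092 for CG1924 and mtsh, and 0.093 for CG42730. CG8509 was at 0.701, 0.165 and 0.274 FPKM in homozygotes, at 0.625, 1.19 and 1.64 FPKM in heterozygotes and at 2.32, 1.24 and 1.53 FPKM in wild types. It had the members' highest library, wild type 1, and their highest homozygote, homozygote 1, which the choice by likeness favours. Among the members themselves, achi at 0.130 and aly at 0.138 were closest to the mean of the tested members, and rye at 0.354 and mia at 0.381 farthest, rye by its larger and mia by its smaller differences between genotypes.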

How the data were processed

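The deposited values are FPKM per locus, made by the authors with HISAT2 2.1.0 and Cufflinks 2.2.1 on dm6, per the submitters' processing notes, which also name limma. The libraries were strand-specific, per the labels' protocols; whether strand was used in counting is not given in the sources used here. Repeated lines were reduced to 1 per locus (15809). FPKM carry no absolute depth, so no count test was run. All 9 libraries entered 1 limma fit (limma 3.58.1, R 4.3.3, mean-variance trend) on log2(FPKM + 1) for 10887 loci with at least 1 FPKM in at least 3 libraries, and p-values were adjusted by Benjamini-Hochberg over these loci. The script was tested on simulated data. The named genes are every member; in each list, every gene past the threshold, or else its most abundant gene; Atg6; and the 5 loci most like the members. Further genes (roX2, vas, nos, zpg, wuc, simj, thoc5, Myb, bol, tj, Six4, ARY, kl-2, Pp1-Y2, bgcn, bam, Mst84Db, janB, gdl, Mst36Fa) were chosen after their values were seen. The members and gene lists were chosen with earlier results of these data known. Gene lists were matched by symbol or by RefSeq synonym. Coordinates come from the BDGP6 annotation. Alternatives varied the pseudocount, filter, scaling, fit, replicate block and the libraries left out.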

Additional observations from a re-analysis of the deposited data

How the results depend on the processing

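The lower call of rye against wild types held in all alternatives, and no member passed between heterozygotes and wild types in any. Of 9 tested members, 5 were lower in homozygotes than in wild types. This count was 4 with a pseudocount of 5, 4 with quantile normalization, 6 with no trend, 2 with a filter at 5 FPKM (2 members tested), 3 with only 2 genotypes fitted, 3 with the replicate block, and between 1 and 7 with 1 library left out, where lower calls over all loci ran from 154 (without wild type 3) to 1700 (without wild type 2, which gave the 7). Lower calls over all loci, 1053 in the main fit, were 589 with a pseudocount of 5, 704 with quantile normalization and 1055 with no trend. They were 659 with a filter at 5 FPKM, 143 with only 2 genotypes fitted and 216 with the replicate block. Against heterozygotes the count of 2 became 1 with a pseudocount of 5, 1 with a filter at 5 FPKM, 1 with only 2 genotypes fitted, 0 with the replicate block, 4 with wild type 1 and homozygote 1 both left out (lower calls over all loci were then 779, against 155), and 0 to 3 with 1 library left out. Over all loci, lower calls against heterozygotes were 139 with a pseudocount of 5 and 165 with a filter at 5 FPKM. They were 106 with only 2 genotypes fitted, 66 with the replicate block and 44 to 198 with 1 library left out. After removal of each genotype's mean, correlations of same-numbered libraries ran from -0.647 to 0.331. Those of differently numbered libraries ran from -0.475 to 0.668. With 3 libraries per genotype, these values cannot settle whether equal numbers mark a shared batch, which the labels do not say. The cause of the changes in these counts was not tested, beyond the fewer libraries or loci in some fits.

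Signs turned only for differences that did not pass. With quantile normalization these were can (0.064) and topi (0.15) against heterozygotes, mia (0.18) against wild types, and nht (0.068) and aly (0.085) in heterozygotes against wild types. With both first libraries left out they were mia against heterozygotes (-0.011), and nht (0.042) and aly (0.065) in heterozygotes against wild types. With 1 library left out, mia against heterozygotes ran from -0.035 to 0.060, and in heterozygotes against wild types nht ran from -0.29 to 0.13, aly from -0.21 to 0.10 and tomb from -0.38 to 0.0052. Over all alternatives, 485 of the members' log2 fold changes kept direction and side of the threshold, 35 lost a call, 7 gained one and 16 turned sign. The 485 include differences that were not called in the main fit and stayed so. All 35 losses fell on the 5 calls against wild types and the 2 against heterozygotes. Against wild types, the call of aly held in 9 of 20 alternatives and that of rye in 21 of 21. Levels near or under 1 FPKM limit the members' values in homozygotes.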
